A study of Mus musculus with 14 samples.

Results

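Distal H3K9cr regions gained after unilateral ureteric obstruction (UUO) were places in the mouse genome, away from the ends of genes, where a peak of histone H3 lysine 9 crotonylation was called in obstructed kidneys and in none of the control kidneys. The peaks of 8 H3K9cr libraries were pooled and overlapping ones were merged, which gave 70117 regions on the autosomes, of which 42318 were distal, with no base within 3 kb of either end of any RefSeq gene. Of these, 770 were selected on their H3K9cr calls, with a peak in 3 or more of the 4 UUO libraries and no peak in any of the 4 control libraries. They made up 1.82% of the distal regions, a share that the selection itself set.

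Whole kidneys were studied in WT and ACSS2-/- mice, each either control or after UUO, a surgical model of kidney fibrosis in which the ureter is ligated. The mice were of the C57BL/6J strain and 6 to 8 weeks of age, the deletion of ACSS2 was a genetic one made with CRISPR/Cas9 and was not limited to a cell type, and the control groups of both genotypes carried no obstruction. H3K9cr was profiled by ChIP-seq in 2 libraries of each group, and acetylation of the same residue (H3K9ac) in 2 libraries of each UUO group and in 1 library of WT control and 1 of ACSS2-/- control kidneys. The interval between surgery and sampling of these kidneys, whether animals were pooled, and whether replicates came from separate animals are not given in the sample labels, so that the p-values measure only the spread between libraries. The deposited lists hold the positions of peaks and no height or depth, and the number of peaks, from 27530 to 45014 for H3K9cr and from 15988 to 32760 for H3K9ac, was the only measure of a library's yield. They hold no expression of Acss2, so the genotype labels were not checked here.

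Lysine 9 of histone H3 lies in the tail of the nucleosome and can carry an acetyl or a crotonyl group, which are added by overlapping enzymes from acetyl-CoA and crotonyl-CoA. ACSS2 is an acyl-CoA synthetase that makes such donors from short-chain fatty acids. Both marks are typical of active promoters, and away from gene ends they are found at enhancers, which differ between cell types, and at start sites of alternative transcripts.

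Among the 770 gained regions, 26 overlapped the 250 bases upstream of an alternative start site that RefSeq annotates inside a gene, with 28 such windows of 25 genes. Over all 42318 distal regions there were 950 such windows. The windows below were chosen because their regions hold the genes described later, among them an Fc receptor of macrophages, an adenylyl cyclase with the densest run of gained regions and a marker of injured tubules. They are the reference sequence of RefSeq on GRCm38, 5′ to 3′ along the gene, and the last base of each lies directly before the start site. Capitals mark matches to short consensus words of transcription factors, searched on both strands.
Fcgr3 internal start: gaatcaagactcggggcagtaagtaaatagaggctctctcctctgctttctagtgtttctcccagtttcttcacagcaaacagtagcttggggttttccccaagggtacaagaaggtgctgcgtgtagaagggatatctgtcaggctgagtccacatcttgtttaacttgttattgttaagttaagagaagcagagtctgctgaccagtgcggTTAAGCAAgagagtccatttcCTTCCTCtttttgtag
Adcy7 first internal start: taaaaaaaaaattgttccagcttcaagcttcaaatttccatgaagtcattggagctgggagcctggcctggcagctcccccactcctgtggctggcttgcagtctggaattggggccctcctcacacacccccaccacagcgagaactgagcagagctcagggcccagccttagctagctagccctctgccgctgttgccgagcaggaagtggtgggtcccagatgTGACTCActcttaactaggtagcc
Adcy7 second internal start: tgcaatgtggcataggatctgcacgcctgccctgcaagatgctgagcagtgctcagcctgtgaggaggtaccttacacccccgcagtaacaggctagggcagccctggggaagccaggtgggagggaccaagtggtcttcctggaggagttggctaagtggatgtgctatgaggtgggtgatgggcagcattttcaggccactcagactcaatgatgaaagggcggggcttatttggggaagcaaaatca
Sema4d internal start: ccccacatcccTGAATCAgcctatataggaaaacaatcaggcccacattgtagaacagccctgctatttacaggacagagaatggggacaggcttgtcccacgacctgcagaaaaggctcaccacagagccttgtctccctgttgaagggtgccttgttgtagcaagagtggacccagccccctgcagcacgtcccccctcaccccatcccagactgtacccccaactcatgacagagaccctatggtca
Cdkl4 internal start: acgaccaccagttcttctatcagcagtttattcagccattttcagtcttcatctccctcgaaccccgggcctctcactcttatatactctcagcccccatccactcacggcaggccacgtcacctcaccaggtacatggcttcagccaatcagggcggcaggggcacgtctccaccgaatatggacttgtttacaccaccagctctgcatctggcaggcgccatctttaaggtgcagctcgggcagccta
Runx3 internal start: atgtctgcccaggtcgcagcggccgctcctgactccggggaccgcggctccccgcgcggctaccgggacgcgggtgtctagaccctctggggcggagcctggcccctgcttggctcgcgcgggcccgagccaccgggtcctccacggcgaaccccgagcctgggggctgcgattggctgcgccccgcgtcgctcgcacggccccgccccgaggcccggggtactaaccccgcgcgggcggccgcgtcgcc
Havcr1 internal start: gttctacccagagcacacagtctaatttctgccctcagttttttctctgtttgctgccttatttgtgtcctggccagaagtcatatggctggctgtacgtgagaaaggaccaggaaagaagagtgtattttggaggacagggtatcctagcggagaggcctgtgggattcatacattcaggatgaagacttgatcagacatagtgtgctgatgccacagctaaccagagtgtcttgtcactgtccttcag
The Fcgr3 window lies at chr1:171059395-171059644 on the minus strand, wholly inside a gained region of 1325 bp and 6.27 kb inside the gene. The windows of Adcy7 lie on the plus strand at chr8:88288816-88289065 and chr8:88293954-88294203, each inside a gained region. Those of Sema4d (chr13:51748811-51749060) and Cdkl4 (chr17:80563835-80564084) lie on the minus strand and inside their regions. On the plus strand, the window of Havcr1 (chr11:46750918-46751167) was also wholly covered, and that of Runx3 (chr4:135152295-135152544) was covered in part.

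The capitals above mark a PU.1 word (GAGGAAG) and a C/EBP word (TTGCNNAA) in the window of Fcgr3, and an AP-1 word (TGANTCA) in the first window of Adcy7 and in that of Sema4d. No matches overlapped each other in the windows printed. The 28 windows include 2 pairs that overlap each other, 1 of them of Fcgr3, whose shared PU.1 and C/EBP matches are counted in both windows. The AP-1 word was present in 6 of the 28 windows (21.4%), in 6.77% of all 31365 windows of the same length, in 1 of the 24 windows at distal regions lost after UUO (a peak in at least 3 control and no UUO library, 4.17%) and in 6.63% of the 950 windows at any distal region. The PU.1 word was present in 5 windows (17.9%) against 10.7% of all windows, 8.33% at lost and 12.0% at any distal region. The IRF word (GAAANNGAA) was in 3 (10.7%) against 7.14% of all windows, and in 12.5% at lost regions, a larger share than at gained ones. The C/EBP word was found in 2 windows, both of Fcgr3 (7.14%, against 9.66% of all), and the NF-kB word (GGGANTTCC) and the TEAD word (ACATTCC) in 1 each (3.57%, against 1.45% and 3.27% of all). The RUNX word (TGTGGTT, 4.42% of all windows), the HNF4 word (CAAAGTCCA, 0.392%), the HNF1 word (GTTAATNAT, 0.736%) and the glucocorticoid receptor motif (0.00956%) had no match in these 28 windows. The windows of gained regions had a median of 3.5 CpG dinucleotides, against 13.5 in the 580 windows at distal regions with H3K9cr in all 8 libraries, 3.0 in the 24 windows at lost regions and 6.0 over all windows. The window of Runx3 stood at the other end, with 38 CpG and 78.8% G and C.

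Most of the gained regions had H3K9cr in 3 rather than 4 UUO libraries, and the missing peak was mainly that of 1 library. A peak was present in all 4 UUO libraries at 204 regions (26.5%) and in exactly 3 at 566 (73.5%). The library without a peak was ACSS2-/- UUO replicate 2 at 399 regions, 51.8% of all, against 33 for WT UUO replicate 1, 75 for WT UUO replicate 2 and 59 for ACSS2-/- UUO replicate 1. A gained region had a peak in 95.7% of cases in WT UUO replicate 1, in 90.3% in WT UUO replicate 2, in 92.3% in ACSS2-/- UUO replicate 1 and in 48.2% in ACSS2-/- UUO replicate 2. The last of these libraries also held the fewest H3K9cr peaks, 27530, and had a peak at 46.8% of the 13559 other distal regions found in at least 3 of the 8 H3K9cr libraries, against between 49.9% and 64.5% in the other UUO libraries. The part of its yield in the missing peaks was not tested.

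**Figure D1:**
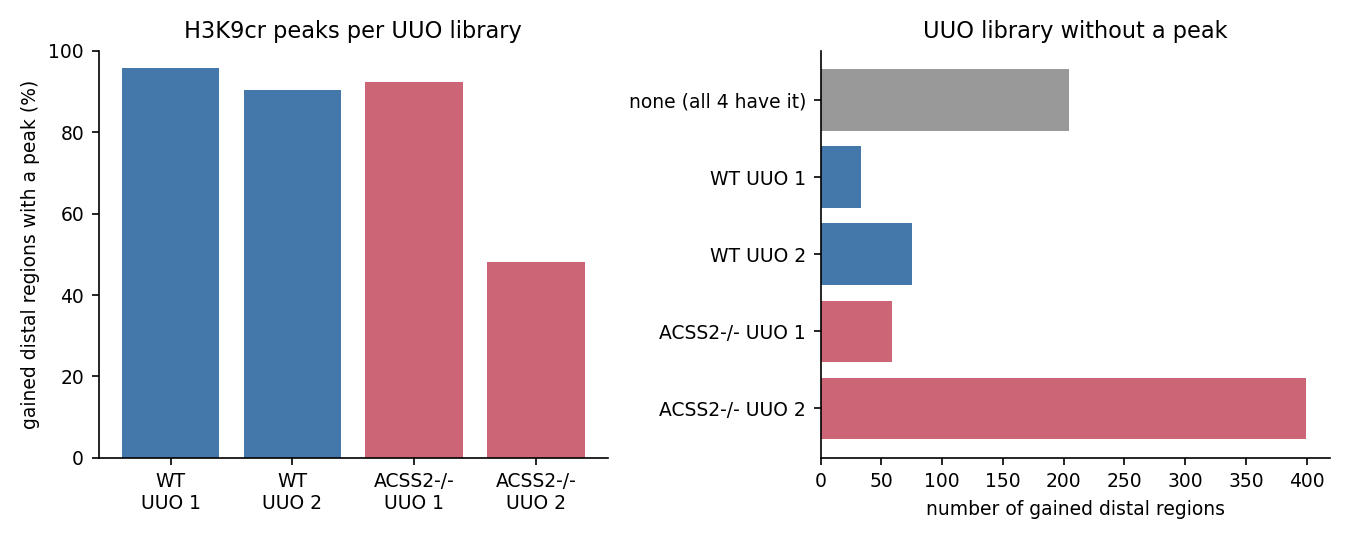
The left bars give the percentage of the 770 gained distal regions with an H3K9cr peak in each UUO library (WT blue, ACSS2-/- red), and the right bars the number of regions by the UUO library that lacked a peak. The shares were 95.7, 90.3, 92.3 and 48.2%, and 399 regions lacked a peak in ACSS2-/- UUO replicate 2 alone.

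Just outside the threshold were 1511 distal regions with a peak in exactly 2 UUO and no control library, and 600 with a peak in 3 or 4 UUO libraries and exactly 1 control library. A further 581 regions met the count of libraries but lay within 3 kb of a gene end, 223 of them over the end itself. The closest gained region began 3001 bp from a gene end, and the farthest of the excluded ones lay at 2993 bp. When all remaining UUO libraries had to carry a peak, the number of gained regions was 241 without WT UUO replicate 1, 282 without WT UUO replicate 2, 267 without ACSS2-/- UUO replicate 1 and 604 without ACSS2-/- UUO replicate 2. With the peaks of WT kidneys only, 2034 distal regions had a peak in both UUO and neither control library.

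The gained regions lay at about the same distance from gene ends as all distal regions. Their median length was 1197.5 bp, from 378 to 5920 bp, against 659 bp for all 42318 distal regions, 1359.5 bp for the 2314 distal regions lost after UUO by the mirrored rule and 2644.5 bp for the 3138 distal regions with H3K9cr in all 8 libraries. The 13559 other distal regions found in at least 3 of the 8 H3K9cr libraries had a median of 1644 bp, longer than the gained ones. The 204 regions in all 4 UUO libraries had a median of 1548.5 bp and the 566 in exactly 3 one of 1081.5 bp. Merging the peaks of more libraries can only lengthen a region, so the number of libraries required bears on all these lengths. A protein-coding gene body held 419 of the 770 (54.4%), against 64.2% of lost regions and 63.7% of all distal regions. The median distance to the nearest end of any gene was 12662 bp, against 13644 bp for all distal regions, with 69 regions (8.96%) more than 50 kb away. Every autosome carried some, from 1.04% of the distal regions of chromosome 14 to 2.33% of those of chromosome 19. The annotation used gives gene bodies and start sites, so exons and introns were not told apart.

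H3K9ac, whose calls played no part in the selection, was found at a minority of the gained regions. The paper states that both marks were profiled in the same samples. The H3K9ac values are thus not independent of the kidneys whose H3K9cr calls chose the regions. H3K9ac was absent from all 6 H3K9ac libraries at 488 regions (63.4%), present in at least 1 UUO library at 243 (31.6%) and in at least 1 control library at 100 (13.0%). Of the 243, 182 had no H3K9ac in control kidneys, and 39 regions had it in control kidneys alone. By number of UUO libraries with H3K9ac, 155 regions had 1, 57 had 2, 24 had 3 and 7 had all 4. H3K9ac was found in UUO at 47.1% of the regions with H3K9cr in all 4 UUO libraries and at 26.0% of those with H3K9cr in exactly 3. These counts were not made over all distal regions, for which the share in each library is given below.

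Library by library, an H3K9ac peak lay at 5.97% of the gained regions in WT control and at 10.1% in ACSS2-/- control kidneys. In UUO kidneys the share was 3.90% and 16.2% in WT replicates 1 and 2, and 4.55% and 23.2% in ACSS2-/- replicates 1 and 2. Over all distal regions, the share was 13.2% and 21.8% in WT and ACSS2-/- control kidneys, 4.07% and 6.005% in WT UUO replicates 1 and 2, and 4.77% and 11.1% in ACSS2-/- UUO replicates 1 and 2. The shares at gained regions were thus lower than over all distal regions in both control libraries and in replicate 1 of each UUO genotype, and higher in replicate 2 of each. The UUO and control groups overlapped at gained regions, since replicate 2 of each UUO genotype was above both controls and replicate 1 below both. The share was 12.0 ± 9.41% in UUO (SD, n = 4) and 8.05 ± 2.94% in control kidneys (SD, n = 2), a difference of 3.93 percentage points that was smaller than the spread between libraries (exact two-sided permutation p = 0.733, where the smallest possible is 0.0667). Without ACSS2-/- UUO replicate 2 the difference was 0.173 points, and with regions chosen on WT libraries only it was -1.99 points. With the same number of longest peaks in every library of a mark it was 7.98 points (exact permutation p = 0.133).

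The UUO libraries of H3K9ac held between 15988 and 24571 peaks against 25585 and 32760 in the control libraries, so each library was also set against its own other distal regions. These 13559 regions leave out the gained ones and include the 2314 lost ones, chosen on the same H3K9cr calls, so the selection bears on this reference. At the 13559 regions, the H3K9ac share was 33.1% and 47.4% in WT and ACSS2-/- control kidneys, and between 11.6% and 26.8% in the UUO libraries. The share at gained regions minus that at the other distal regions was -27.2 and -37.3 points in WT and ACSS2-/- control kidneys. In UUO kidneys it was -7.71 and 0.621 points in WT replicates 1 and 2, and -8.91 and -3.56 points in ACSS2-/- replicates 1 and 2. The gap was -4.89 ± 4.33 points in UUO (SD, n = 4) and -32.2 ± 7.17 points in control kidneys (SD, n = 2), a difference of 27.3 points with no overlap of the groups and an exact two-sided permutation p of 0.0667, which is the smallest that 4 against 2 libraries allow and misses the threshold of 0.05.

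The reference regions themselves carried less H3K9ac after UUO, and the separation depended on how they were used. Distal regions with H3K9cr in all 8 libraries had H3K9ac at 73.1% and 84.3% in control and at between 40.1% and 66.8% in UUO libraries. The share at gained regions divided by the share at these was 0.0817 and 0.120 in control libraries, and 0.0972, 0.336, 0.105 and 0.348 in WT replicates 1 and 2 and ACSS2-/- replicates 1 and 2 after UUO. On this ratio the groups overlapped (exact two-sided permutation p = 0.267). As the reference for the difference in points, the regions in all 8 libraries, none of them lost, gave 33.0 (chosen after seeing the data). The lost regions carried H3K9ac at 13.5% and 24.7% in control libraries and at between 0.562% and 3.20% in UUO libraries.

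**Figure D2:**
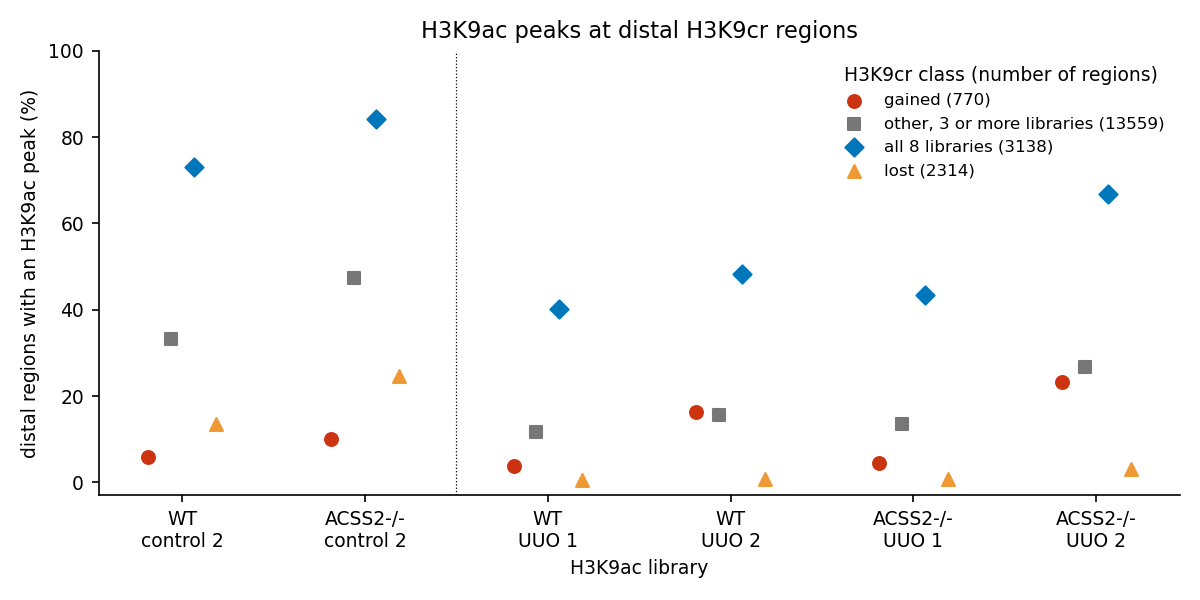
Each point is the percentage of distal regions of one H3K9cr class with an H3K9ac peak in one library, for 2 control libraries (left of the dotted line) and 4 UUO libraries. The gained regions (circles) lie between 3.90% and 23.2% after UUO and at 5.97% and 10.1% in control kidneys, while the other classes lie lower after UUO than in both controls.

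A stricter reading of H3K9ac used the rule that had chosen the regions by H3K9cr. H3K9ac was in at least 3 of 4 UUO and neither control library at 20 of the 770 regions (2.60%), against 0.123% of all distal regions, and the 20 were 38.5% of the 52 distal regions so called. In the opposite direction, 4 gained regions (0.519%) had H3K9ac in both control and no UUO library, against 3.3% of all distal regions. The count of 20 was 13 without WT UUO replicate 1, WT UUO replicate 2 or ACSS2-/- UUO replicate 1 of H3K9cr, since the remaining 3 libraries then all had to carry H3K9cr.

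Of these 20 regions, 12 had H3K9cr in all 4 UUO libraries, and the 8 longest of these are described here. The region in Spi1, which encodes PU.1, the master transcription factor of macrophages, spanned chr2:91096116-91098292. Its H3K9cr peaks measured 2168 and 1690 bp in WT UUO replicates 1 and 2, and 2030 and 761 bp in ACSS2-/- UUO replicates 1 and 2. Its H3K9ac peaks measured 1723 and 1549 bp in the WT and 949 and 3205 bp in the ACSS2-/- UUO libraries. No control library of either mark had a peak there. The shortest H3K9cr and the longest H3K9ac peak were in the ACSS2-/- UUO libraries labelled replicate 2, whose peak names give the number 2 for H3K9cr and 3 for H3K9ac.

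The region in Pik3ap1, an adaptor that links B-cell and Toll-like receptors to PI3K, lay at chr19:41331441-41333623. H3K9cr peaks of 2174, 1656, 1695 and 319 bp were called there in WT UUO replicates 1 and 2 and ACSS2-/- UUO replicates 1 and 2, and H3K9ac peaks of 683, 630 and 1199 bp in both WT libraries and ACSS2-/- replicate 2. At Runx1, a transcription factor of blood cells that is also induced in injured epithelium, the region at chr16:92693216-92694813 had H3K9cr peaks of 954 and 596 bp in WT and 1598 and 1018 bp in ACSS2-/- UUO libraries. Its H3K9ac peaks of 500, 386 and 1595 bp were in WT replicate 2 and both ACSS2-/- replicates. The region in Mrtfa, a coactivator that responds to actin and drives myofibroblast genes, lay at chr15:81044535-81046209 and had H3K9cr peaks of 1183, 1586, 838 and 610 bp in the same order.

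The longest region with both marks, 4317 bp, lay in Gramd3 on chromosome 18, with H3K9cr peaks of 4051 and 4254 bp in WT and 2598 and 655 bp in ACSS2-/- UUO libraries. A region of 2682 bp in Dhx34, an RNA helicase gene, lay within 50 kb of C5ar1 and C5ar2, which encode receptors of the complement fragment C5a. A region of 2696 bp on chromosome 6 had no protein-coding gene within 50 kb, and the nearest, Klf14, was 127875 bp away. The 8th region, of 1216 bp in Cdkl4, is the one whose internal start is printed above. In 6 of the 8 regions the shortest of the 4 H3K9cr peaks was that of ACSS2-/- UUO replicate 2.

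**Figure D3:**
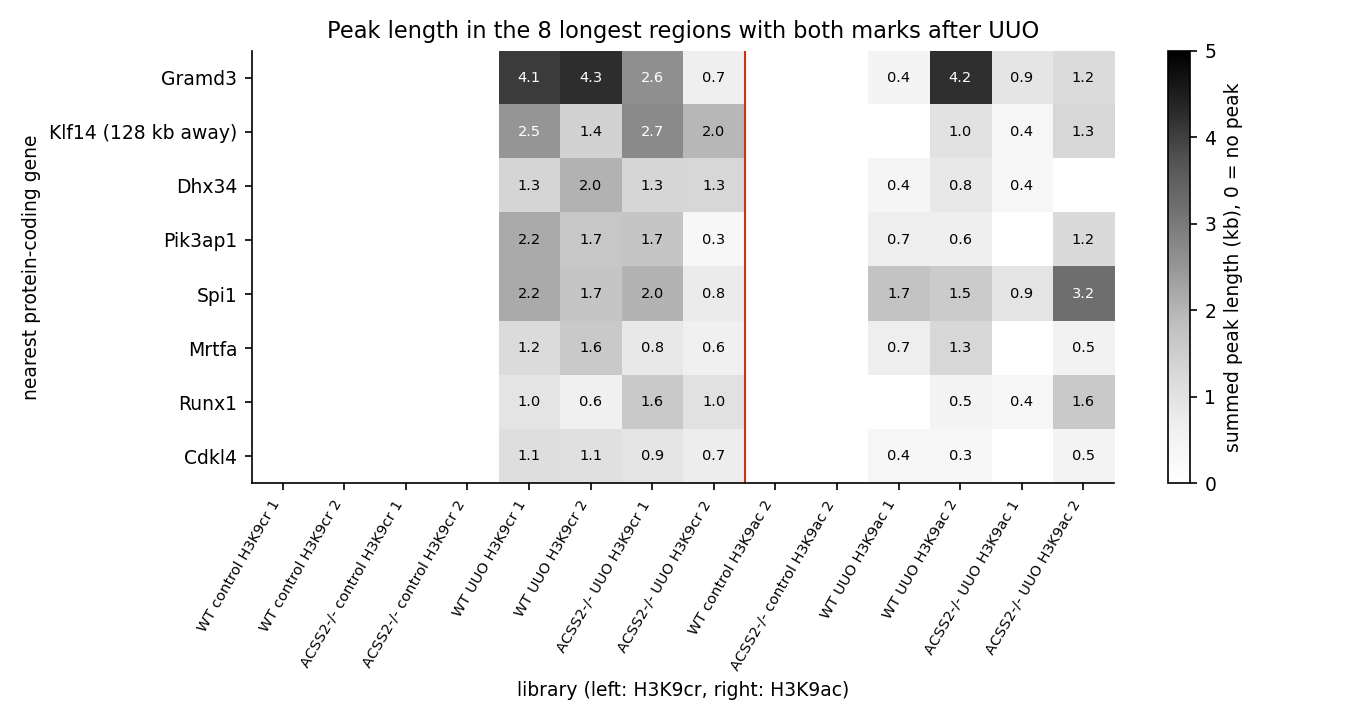
Rows are the 8 longest gained regions with H3K9cr in all 4 UUO libraries and H3K9ac in at least 3 UUO and no control library, named by the nearest protein-coding gene, and columns are the 14 libraries. Shading and numbers give the summed length in kb of the peaks at the region, from blank (no peak, as in every control library) to 4.3 kb for Gramd3 in WT UUO replicate 2.

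Some gained regions lay close to one another. The same count was not made for other distal regions, so the share with a neighbour is a description. With gaps under 50 kb counted as 1 run, 579 regions stood alone and 191 (24.8%) had a neighbour, in 70 runs of 2, 10 of 3, 4 of 4 and 1 of 5. The run of 5 lay within 14.7 kb of Adcy7, an adenylyl cyclase of immune cells that makes cyclic AMP, at chr8:88284483-88299186. Runs of 4 lay in Sema4d, a semaphorin of T cells, over 15.8 kb, and in Ets1, a transcription factor of lymphocytes and endothelium, over 18.5 kb. The others were at Il10ra, a receptor chain for interleukin-10, over 59.1 kb with the neighbouring BC049352, and at the Ms4a4c, Ms4a4b and Ms4a6c cluster of membrane proteins of leukocytes, over 90.2 kb.

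At Adcy7, the 5 regions lay between 12.3 and 27.0 kb from the first base of the gene. All 5 had a peak in WT UUO replicate 1 and ACSS2-/- UUO replicate 1, while WT UUO replicate 2 lacked 1 and ACSS2-/- UUO replicate 2 lacked 2. H3K9ac marked the 4th of them, from 21.6 to 22.95 kb, in all 4 UUO libraries, with peaks of 457 and 637 bp in WT replicates 1 and 2 and 978 and 995 bp in ACSS2-/- replicates 1 and 2. This is the region of the second Adcy7 window printed above. Near the gene's first base, a peak of H3K9cr lay in every UUO library and, among the control libraries, in WT replicate 2 with 409 bp.

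**Figure D4:**
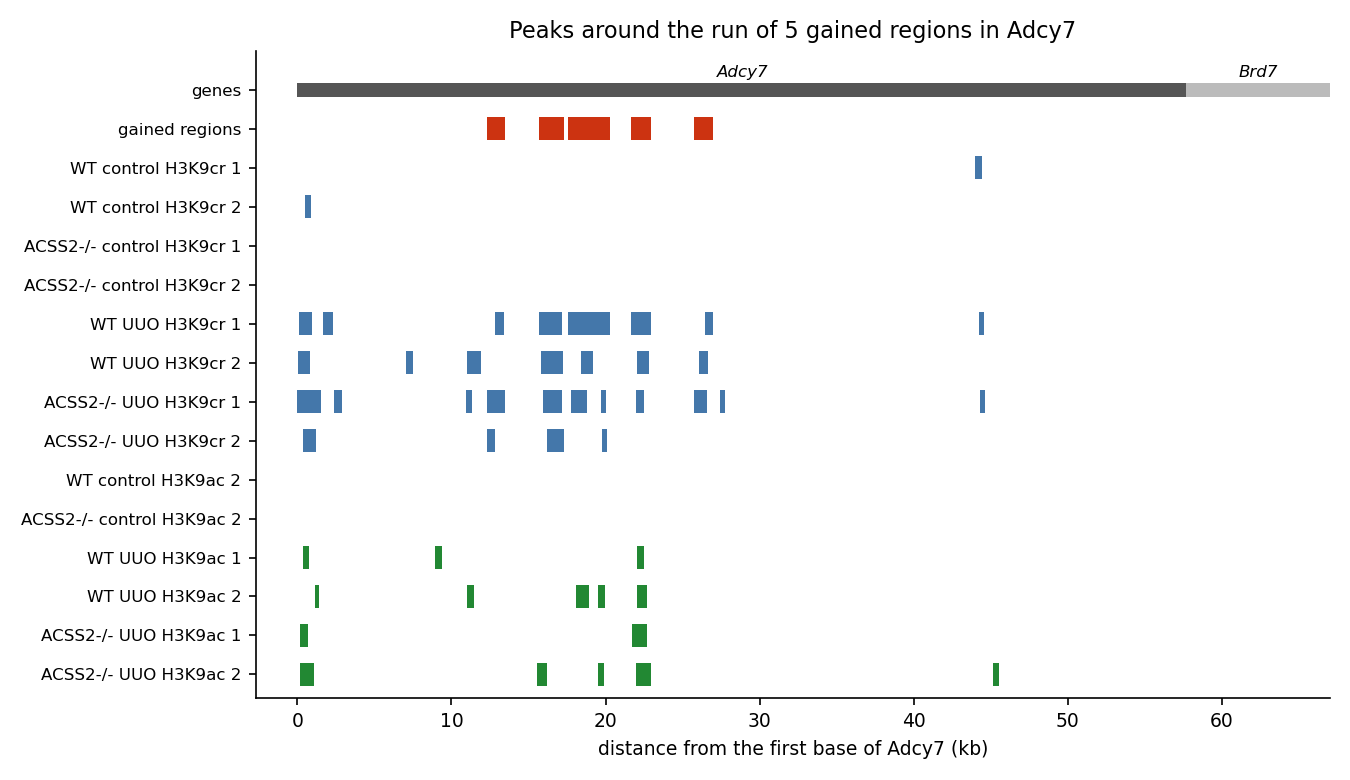
Bars are peaks in each of the 14 libraries (H3K9cr blue, H3K9ac green) and the 5 gained regions (red) along the distance in kb from the first base of Adcy7, with the gene bodies of Adcy7 (dark) and Brd7 (light) on top. No control library has a peak between 12.3 and 27.0 kb, where the gained regions lie.

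The genes with most gained regions within 50 kb of the gene body were Adcy7 and its neighbours Brd7 and Tent4b, with the same 5 regions, followed by 8 genes with 4 each, of which Rad51b, Ms4a4b, Sema4d, BC049352, Il10ra, Ets1 and Ccdc146 had the largest summed length. Of all 20665 protein-coding autosomal genes, 1238 (5.99%) had at least 1 gained region within that distance and 2952 (14.3%) at least 1 lost region. Rad51b, a DNA repair gene, spans 4 regions in a long gene body. Lists of genes by cell type and function are described below by their counts, beside these shares.

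Against 5.99% of all genes, the highest shares with a gained region within 50 kb were those of 3 lists of immune genes. The order of the lists depended on this distance, as 7 of 46 AP-1 and stress transcription factors had one within 20 kb and 12 within 100 kb, against 6 and 13 of 40 cytokine genes and 6 and 9 of 35 macrophage genes. Of 36 lymphocyte genes, 11 (30.6%) had a gained region within 50 kb, 7 of 35 macrophage and monocyte genes (20%) and 10 of 40 genes of cytokines, chemokines and their receptors (25%). A lost region lay near 7, 2 and 2 genes of these lists. Within the cytokine list, the region in Il18r1 and 1 of those in Il21r each lay near a further listed gene and counted for both. The lymphocyte list includes Ptprc, a gene of leukocytes in general, so the order of the lists does not compare cell lineages. In bulk kidney, more cells of a type and more of the mark per cell cannot be told apart, and at gene ends the markers moved as well. An H3K9cr peak lay within 3 kb of an end of 9 to 14 of the 35 macrophage genes in control and 18 to 27 in UUO libraries, of 8 to 14 and 17 to 28 of the 36 lymphocyte genes, and of 19 to 22 and 26 to 34 of the 40 cytokine genes. Over all protein-coding genes these numbers were 12567 to 13246 in control and 12573 to 13251 in UUO libraries. The part of leukocyte numbers in the gained regions was not tested.

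Among macrophage genes, the regions in Spi1 and Fcgr3 carried both marks. Fcgr3 encodes an Fc receptor for IgG, and its region at chr1:171058425-171059749 had H3K9cr peaks of 993, 599 and 1325 bp in both WT and the first ACSS2-/- UUO library and none in ACSS2-/- UUO replicate 2. H3K9ac peaks there were 639, 565 and 1118 bp long in WT replicate 2 and both ACSS2-/- replicates. Near Lgals3, which encodes galectin-3, a region of 3737 bp lay 10728 bp from the gene and had no H3K9ac in any library, and the same held for the region near Ccr2, the receptor that draws monocytes into tissue. The regions in Laptm5, a lysosomal protein of blood cells, and Ncf4, a subunit of the phagocyte NADPH oxidase, had H3K9ac in 1 UUO library each.

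Among lymphocyte genes, Runx3, a transcription factor of cytotoxic T cells, had 3 gained regions within 50 kb. The region in the gene, at chr4:135151600-135152488, had H3K9cr peaks of 449 and 520 bp in WT and 806 and 504 bp in ACSS2-/- UUO libraries, and an H3K9ac peak of 370 bp in ACSS2-/- UUO replicate 2 only. Tcf7, a transcription factor of T cells, Ptprc, the leukocyte phosphatase CD45, and Bach2, a regulator of B and T cells, had 2 each. At Ptprc, 1 of the regions, of 599 bp, had H3K9ac in ACSS2-/- control kidneys and not after UUO. The regions near the surface receptors Cd2 and Cd5 carried no H3K9ac, and that of Cd5 lay 23204 bp away, inside another gene.

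Of the cytokine and chemokine receptors, Il10ra had 4 gained regions, of which 1, of 2022 bp and 4388 bp from the gene, had H3K9ac in ACSS2-/- UUO replicate 2. Ccr1, a receptor of inflammatory chemokines, had regions of 2814 and 4440 bp, both with H3K9ac in WT UUO replicate 2 alone. Ifngr1, a chain of the interferon-gamma receptor, had 2 regions, and the nearer one, 12974 bp away, had H3K9ac peaks of 1354 bp in WT UUO replicate 2 and 487 bp in ACSS2-/- UUO replicate 2. In Il21r, 1 of 2 regions, at chr7:125607258-125608466, had H3K9ac in 3 UUO libraries and also a peak of 399 bp in WT control kidneys. Single regions without H3K9ac lay in Il18r1 and 40698 bp from Il1a.

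The lists of nephron genes had from 0 to 3 genes near gained regions. None of 34 proximal tubule genes had a gained region within 50 kb, whereas 18 (52.9%) had a lost one, and an H3K9cr peak lay at an end of 29 to 33 of them in control and 15 to 27 in UUO libraries. Of 29 genes of the distal nephron and collecting duct, 3 (10.3%) had a gained region. These were Scnn1b, a subunit of the epithelial sodium channel with 2 regions, Slc12a3, the sodium-chloride cotransporter, and Hsd11b2, which protects the mineralocorticoid receptor from glucocorticoids. The Slc12a3 region lay 27212 bp and the Hsd11b2 region 3559 bp from the gene, each inside another gene. At the Hsd11b2 region, H3K9ac peaks measured 324 bp in WT control kidneys and 316 bp in ACSS2-/- UUO replicate 2. In Scnn1b, 1 region had H3K9ac in ACSS2-/- control (373 bp), WT UUO replicate 2 (634 bp) and ACSS2-/- UUO replicate 1 (587 bp). Synpo, an actin-associated protein of podocytes, was the 1 of 15 podocyte genes, and its region of 1787 bp had H3K9cr in all 4 UUO libraries.

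Havcr1, which encodes the injury marker KIM-1, was the 1 of 40 injured tubule genes near gained regions, with 2 of them. The one at its internal start, chr11:46750552-46751746, had H3K9cr peaks of 979 and 1018 bp in WT UUO replicates 1 and 2 and 620 bp in ACSS2-/- UUO replicate 1. A single H3K9ac peak of 3658 bp, longer than the region, overlapped it in ACSS2-/- UUO replicate 2. The other, of 996 bp, had no H3K9ac.

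The shares of fibroblast and matrix genes were close to that of all genes. Of 39 fibroblast and myofibroblast genes, 3 (7.69%) had a gained region, namely Ltbp2, a matrix protein related to the latent TGF-beta binding proteins, with 2 regions, Tagln, a smooth muscle actin-binding protein, and Tgfbr2, a receptor of TGF-beta, and none of these regions carried H3K9ac. The Tagln region and 1 of those of Ltbp2 lay inside other genes, 8251 and 19575 bp away, and the Tgfbr2 region was 48368 bp from its gene. Of 36 extracellular matrix genes, 2 (5.56%) had one, Itga5, a fibronectin receptor chain, and Spp1, which encodes osteopontin, while 11 (30.6%) had a lost region. The Itga5 region lay 9712 bp away inside another gene, and the Spp1 region 30902 bp from the gene. Of 46 AP-1 and stress transcription factors, 8 (17.4%) had a gained and 13 (28.3%) a lost region. Runx1, Maff and Atf3 had 2 gained regions each and Fos, Fosl2 and Bcl3 had 1 each. The region inside Maff had H3K9ac peaks of 332 bp in WT control, 487 bp in ACSS2-/- control and 463 bp in ACSS2-/- UUO replicate 2. At Atf3, 1 region had H3K9ac peaks of 489 bp in ACSS2-/- control kidneys and 502 bp in WT UUO replicate 2. The region 5187 bp from Fos, of 1864 bp, had H3K9cr in all 4 UUO libraries and no H3K9ac.

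Of 28 endothelial genes, 4 (14.3%) had a gained region, and some regions at Ets1 and Erg carried H3K9ac in control kidneys. Ets1 had 4 regions, and 2 of them had H3K9ac in 1 control library, with peaks of 568 and 1770 bp. After UUO these 2 had H3K9ac peaks of 1555 and 732 bp in WT replicate 2 and 765 and 316 bp in ACSS2-/- replicate 2. At chr9:32705118-32706350 H3K9ac was absent in control kidneys and measured 596, 479 and 517 bp in WT replicate 2 and both ACSS2-/- UUO replicates. The remaining Ets1 region carried no H3K9ac. At Erg, a transcription factor of endothelium, a gained region of 553 bp lay under H3K9ac peaks of 4820 and 5442 bp in WT and ACSS2-/- control kidneys and 2989 bp in ACSS2-/- UUO replicate 2 (H3K9ac in both control libraries). Single regions near Icam2, an adhesion molecule, and in Notch1 completed the list.

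**Figure D5:**
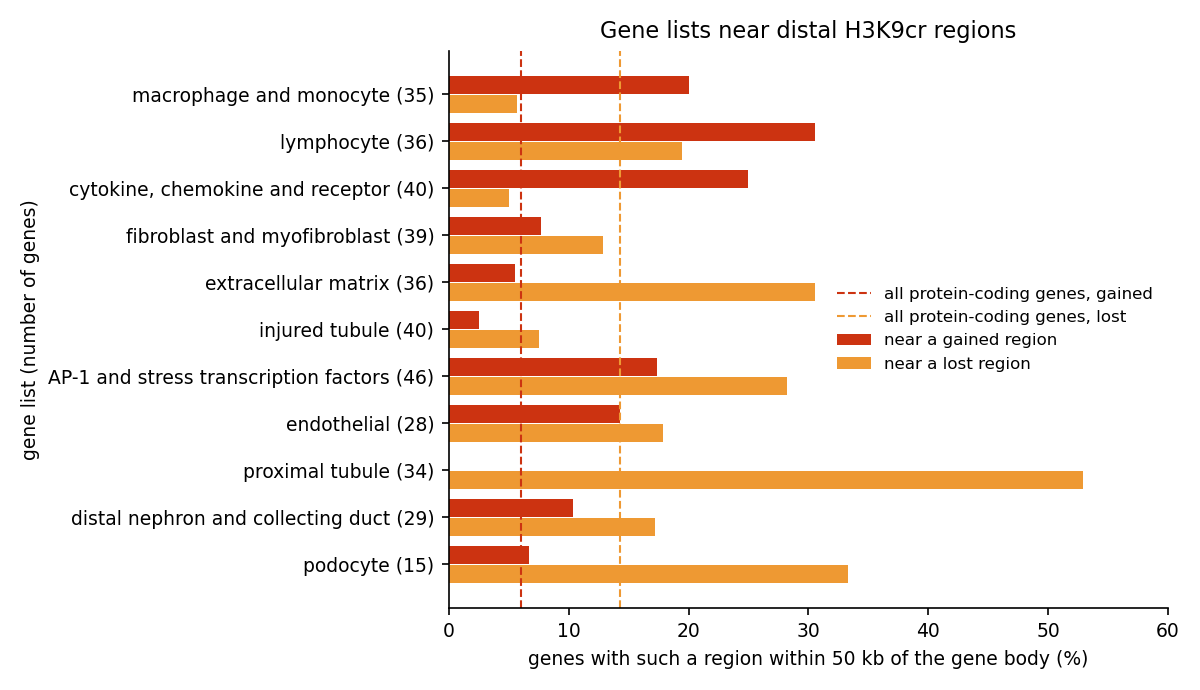
Bars give the percentage of genes of each list with a gained (red) or lost (orange) distal H3K9cr region within 50 kb of the gene body, and dashed lines the same for all 20665 protein-coding autosomal genes, 5.99% and 14.3%. Lymphocyte, cytokine and macrophage genes reach 30.6, 25 and 20% for gained regions, and proximal tubule genes 0% for gained and 52.9% for lost ones.

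The genes that the study centres on had no gained distal region nearby. The nearest lay 105658 bp from Il1b, which encodes interleukin-1 beta, 160084 bp from its receptor gene Il1r1 and 242066 bp from Acss2 itself. Each of these 3 regions had H3K9cr in 3 UUO libraries. Regions within 3 kb of a gene end are left out by the selection, so that these distances say nothing about the promoters.

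Between the genotypes, the shares of gained regions with H3K9ac differed by less than the spread of 2 libraries. The share with H3K9ac after UUO was 13.9 ± 13.2% in ACSS2-/- (SD, n = 2) and 10.1 ± 8.72% in WT kidneys (SD, n = 2), a difference of 3.83 points (exact two-sided permutation p = 0.667). Against the other distal regions of each library the difference was -2.69 points (exact two-sided permutation p = 0.667). H3K9ac was in both WT and neither ACSS2-/- UUO library at 3 gained regions (0.390%, against 0.0945% of all distal regions) and in both ACSS2-/- and neither WT UUO library at 4 (0.519%, against 0.702%). With 2 libraries against 2, the exact test cannot give a p below 0.333. The selection of at least 3 of 4 UUO libraries requires H3K9cr peaks in both genotypes. Regions gained in WT or in ACSS2-/- kidneys alone were thus left out of this comparison.

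The median H3K9cr peak at gained regions measured 798 and 615 bp in WT UUO replicates 1 and 2 and 634.5 and 457 bp in ACSS2-/- UUO replicates 1 and 2. Distal H3K9cr peaks in these libraries had medians of 624, 597, 574 and 556 bp. Relative to them, peaks at gained regions were 1.15 ± 0.176 times as long in WT (SD, n = 2) and 0.964 ± 0.200 times in ACSS2-/- kidneys (SD, n = 2), a difference of -0.191 that ranged from -0.467 without ACSS2-/- UUO replicate 1 to -0.0226 without WT UUO replicate 1 and was -0.0643 without ACSS2-/- UUO replicate 2. These are a description, since calls of the same peaks chose the regions. The ratios were 1.28 and 1.03 in WT and 1.11 and 0.822 in ACSS2-/- libraries, so that the groups overlapped.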

How the data were processed

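ChIP-seq peak lists of 14 mouse kidney libraries were used. According to the methods, the authors filtered reads for quality, mapped them with Bowtie2, left out those from organelles, of low mapping quality or duplicated, and called peaks with MACS2 in each library. The submitters' processing notes name Bowtie2, MACS2, ChIPseeker and mm10, and versions and the MACS2 control are not given in the sources used here. The deposited values are positions only, so presence and length of a peak were the readouts, read depth is unknown and no counting interval was given. In the labels, each antibody has another catalogue number in each group.

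Peaks were merged and compared at an overlap of at least 1 bp, with genes and start windows from RefSeq GRCm38.p6, which has the coordinates of mm10. The members and gene lists were chosen with earlier results of these data known. Lost regions had a peak in at least 3 of 4 control and no UUO library. Groups followed the labels, and means were compared by exact two-sided permutation over libraries. Named were the 8 longest regions with both marks, the 10 genes with most regions, up to 6 genes of each of 11 lists (most regions first, then by symbol), Il1b, Il1r1 and Acss2, and the longest runs. C5ar1 and C5ar2, Ms4a4c and Ms4a6c are neighbours of these. One gene that this rule names is not reported here. Sequences around region centres were not used here, so motifs were searched in the 250 bases upstream of start sites. The merging and calling of regions were tested on simulated peak lists, the exact test on cases with known answers and the overlaps against bedtools 2.31.1. The counts near genes and the search for words were not tested in this way. Python 3.11.15, numpy 2.4.6 and pandas 2.3.3 were used. Alternatives covered the gene-end window, the annotation, the libraries required or left out, equal numbers of peaks, the overlap, the reference regions, the replicate block and the distance to genes. Input and RNA-seq libraries were not used here.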

Additional observations from a re-analysis of the deposited data

How the results depend on the processing

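The number of gained regions was 448 with gene ends excluded within 10 kb, 204 with a peak in all 4 UUO libraries and 2034 from WT libraries only, and between 241 and 1095 when 1 H3K9cr library was left out. The 20 regions with H3K9ac in at least 3 UUO and neither control library became 11, 12 and 34 under the same settings and 32 with equal numbers of longest peaks (27530 of H3K9cr, 15988 of H3K9ac), and between 13 and 25 with 1 library left out. The difference in H3K9ac share between UUO and control turned to -1.99 points with WT libraries only. That between the genotypes turned to -0.162 points with equal numbers of peaks and ranged from -5.52 to 13.2 with 1 library left out. Relative to other distal regions it turned to 0.242 points with all 4 UUO libraries required, to 0.938 with reference regions in at least 1 library and to 0.0100 as a ratio to regions in all 8 libraries (chosen after seeing the data), and ranged from -6.86 to 1.47 with 1 library left out. The difference between UUO and control relative to other distal regions kept its direction in every alternative tried, from 15.2 to 33.9 points, and no permutation p passed the threshold of 0.05. As a ratio of shares, chosen after seeing the data, it was 0.448 (exact permutation p = 0.133). The replicate block, which pairs WT and ACSS2-/- UUO libraries by number, left the differences at 3.83 and -2.69 points (exact sign-flip p = 0.5) and -0.191 for the relative length of H3K9cr peaks. The deviations of same-numbered libraries correlated at 0.113 for H3K9ac and 0.0142 for H3K9cr over distal regions. The H3K9ac share at gained regions was 3.90% and 4.55% in replicate 1 of WT and ACSS2-/- UUO kidneys, and 16.2% and 23.2% in replicate 2. By the numbers in the peak names the order differed, with number 2 at 16.2% in WT and at 4.55% in ACSS2-/- UUO kidneys. Whether same-numbered libraries share more than the number is not given in the labels. The difference in relative length ranged from -0.467 to -0.0226 with 1 library left out. Within 20 and 100 kb in place of 50 kb, gained regions lay near 8 and 12 lymphocyte, 6 and 9 macrophage, 6 and 13 cytokine, 7 and 12 AP-1 and stress and 0 and 4 proximal tubule genes, against 670 and 2039 of all genes. Unknown depth, presence calls and 1 H3K9ac library per control group limit all of these values.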

Other observations

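The numbers written in the peak names do not always equal the replicate numbers of the labels. By these names, the ACSS2-/- UUO libraries numbered 2 had an H3K9cr peak at 48.2% and an H3K9ac peak at 4.55% of the gained regions, and those numbered 3 at 92.3% and 23.2%. The WT UUO libraries numbered 2 had them at 90.3% and 16.2%. The paper states that both marks were profiled in the same samples. Whether a number stands for the same animal in both marks is not given in the labels.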
